A study of Mus musculus with 6 samples.

Results

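Hormone receptors and hormone-sensing genes were followed in the mammary gland of C3(1)-Tag mice, in the epithelium and in the stroma. The 7 genes were Esr1, Pgr, Prlr, Greb1, Cited1, Tph1 and Stc2, out of 31055 features counted. They were chosen by name with earlier results of these data known, namely their levels in epithelial cells between states, so those values are given as a description, without a test. The gene lists used below were also chosen with earlier results of these data known, so their counts and p-values are no independent test. Epithelial cells were those with at least 1 UMI (unique molecular identifier, a tag that counts each captured RNA molecule once) of Epcam, the gene of the epithelial cell adhesion molecule. There were 9890 of them among 21537 cells kept.

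The data were 6 droplet libraries of dissociated cells, 2 for each of 3 states. All came from female mice that carry the SV40 large T antigen under the C3(1) promoter, so the youngest glands carry the transgene as well and no transgene-free gland was among the groups. Prepuberty was whole gland at 5 weeks of age, DCIS (ductal carcinoma in situ) whole gland at 14 weeks, and Tumor a palpable tumour at over 18 weeks. The line was made on FVB/NJ mice, as the study gives it. The labels do not say whether the 2 libraries of a state came from separate animals. The study in places calls them technical replicates and elsewhere specimens, and it describes its 2 tumours as molecularly distinct. Each SE and p-value thus measures the spread between libraries, which may be technical. State, age and the tissue sampled (whole gland or palpable tumour) moved together and cannot be told apart. The estrous stage was not given in the sources used here. The labels give the same digestion and library kit for all samples. The study's methods name another dissociation kit for tumours and a later library kit for Tumor 2, and a part of either in the results was not tested.

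In the ductal epithelium, estrogen acts through the estrogen receptor of a subset of luminal cells, the hormone-sensing cells, where it induces the progesterone receptor. These cells rarely divide themselves and signal to their neighbours through secreted factors such as amphiregulin (Areg), RANK ligand (Tnfsf11) and Wnt4. Prolactin acts through its own receptor and the kinase Jak2 on the transcription factors Stat5a and Stat5b, which drive the secretory programme. The other luminal cells and the outer basal cells mostly lack these steroid receptors, and mammary fibroblasts can also make them.

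Esr1 encodes the estrogen receptor alpha and lies on chromosome 10 (4611593 to 5005614, plus strand) of GRCm38. Pgr, the progesterone receptor gene, lies on chromosome 9 (8899833 to 8968611, plus strand). Prlr, the prolactin receptor gene, lies on chromosome 15 (10177238 to 10349180, plus strand). Greb1, an estrogen-induced gene whose product binds the estrogen receptor, lies on chromosome 12 (16670615 to 16800886, minus strand). Cited1, a transcriptional coregulator, lies on chromosome X (102247381 to 102252181, minus strand). Tph1, which encodes the rate-limiting enzyme of serotonin synthesis outside the brain, lies on chromosome 7 (46644641 to 46672537, minus strand). Stc2 encodes stanniocalcin 2, a secreted glycoprotein, and lies on chromosome 11 (31357307 to 31370074, minus strand).

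Promoters of Prlr, Esr1 and Greb1 are shown because they hold letters recognised by the STAT5, forkhead, progesterone or estrogen receptor proteins, whose genes or pathways are described below. Each is the 250 bases before a RefSeq start (GRCm38.p6), written 5′ to 3′ on the strand of the gene, with motif matches in capitals.
Prlr, chr15:10223656-10223905, plus strand: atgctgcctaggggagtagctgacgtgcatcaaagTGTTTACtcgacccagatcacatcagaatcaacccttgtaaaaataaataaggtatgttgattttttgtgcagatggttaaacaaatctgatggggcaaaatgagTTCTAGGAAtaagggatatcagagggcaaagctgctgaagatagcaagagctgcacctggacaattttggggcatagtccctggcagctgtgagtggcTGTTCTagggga
Esr1, chr10:4709908-4710157, plus strand: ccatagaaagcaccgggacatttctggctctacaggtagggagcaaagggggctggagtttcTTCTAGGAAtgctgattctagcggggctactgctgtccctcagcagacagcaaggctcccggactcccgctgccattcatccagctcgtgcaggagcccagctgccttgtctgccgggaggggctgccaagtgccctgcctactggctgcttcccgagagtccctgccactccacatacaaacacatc
Greb1, chr12:16800887-16801136, minus strand: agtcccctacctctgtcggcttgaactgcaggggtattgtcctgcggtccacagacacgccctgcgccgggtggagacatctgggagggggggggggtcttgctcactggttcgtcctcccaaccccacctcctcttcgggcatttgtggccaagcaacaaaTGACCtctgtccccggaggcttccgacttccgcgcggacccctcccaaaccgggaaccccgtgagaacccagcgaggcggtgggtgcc
The capitals mark, in Prlr, the forkhead motif TGTTTAC beginning 215 bases before the start, the STAT5 motif (TTCNNNGAA, here TTCTAGGAA) at 110 and the progesterone-response motif TGTTCT at 12. In Esr1 they mark the same STAT5 letters, TTCTAGGAA, at 188 bases. In Greb1 they mark TGACC, the reverse complement of the estrogen-response core GGTCA, at 88 bases. Motifs were searched on both strands, and the core GGTCA overlaps the full estrogen response element, which is the core, 3 free bases and the reverse complement of the core.

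All 7 genes had promoters in the RefSeq table, 14 in all. The STAT5 motif was found in 2 of the 14, against 7.02% of 32851 promoters, and the forkhead and progesterone-response motifs each in 1, against 3.17% and 16.1%. The estrogen-response core was found in 5 of the 14 (of Greb1, Cited1 and Tph1), against 35.2% of all. The full element was found in 0 of the 14 and in 0.0639% of all. A match describes letters in a window and no binding was measured.

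The libraries held 28512209 to 57143434 UMIs after filtering, and the Epcam-positive cells numbered 1024 and 259 in Prepuberty 1 and 2, 1707 and 1641 in DCIS 1 and 2, and 3511 and 1748 in Tumor 1 and 2. The small Prepuberty 2 group makes its values the least precise. Pairs of libraries shared 7 to 34 cell barcodes. In the summed Epcam-positive cells, the epithelial markers (Epcam, Krt8, Krt18, Cdh1) stood at 3503 to 7703 CPM (UMIs of a gene scaled to the same total in every library) and the immune markers at 1.51 to 43.7 CPM. Fibroblast markers (Pdgfra, Dcn, Lum, Col1a1) summed to 755 and 433 CPM in Prepuberty, 526 and 310 in DCIS and 267 and 229 in Tumor, and their part in the results was not tested. Dcn made up most of that sum except in Tumor 1, at 540 and 391 CPM in Prepuberty, 364 and 269 in DCIS and 47.5 and 154 in Tumor, while Pdgfra stood at 4.70 to 56.5 CPM.

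In Epcam-positive cells each of the 7 genes had lower levels in Tumor than in Prepuberty, while the place of DCIS differed between genes. In the edgeR fit over all genes, the log2 fold change from Prepuberty to Tumor was below 0 for 7 of 7 genes, with a median of -3.02 against 0.08 over all genes tested. All 7 had a lower CPM in both Tumor libraries than in both Prepuberty libraries, where 19.3% of the 14271 genes tested did and 35.9% were higher in both. From DCIS to Tumor the median was -2.20 against 0.07, and 4 of 7 genes did not overlap between the states, where 16.3% of all genes were lower without overlap. From Prepuberty to DCIS the median was -0.82 against 0.01, and 2 of 7 genes (Esr1 and Pgr) were lower in both DCIS libraries, where 33.4% of all genes were, while Tph1 was higher in both, where 18.3% were. Among genes past the threshold of 0.05 after Benjamini-Hochberg adjustment, 1 of the 7 (Tph1, lower) was counted from DCIS to Tumor, where 1.06% of all genes passed and 0.862% were lower, 1 (Tph1, lower) from Prepuberty to Tumor, where 3.26% passed, 1.96% lower and 1.3% higher, and 0 from Prepuberty to DCIS, where 0 of 14271 genes passed. In that last comparison 1370 genes had an unadjusted edgeR p under 0.05, and DESeq2 called 203. These counts use the contrast in which the genes were chosen and nothing is read from them. In such sums, fewer cells of a type and less RNA per cell cannot be told apart.

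**Figure D1:**
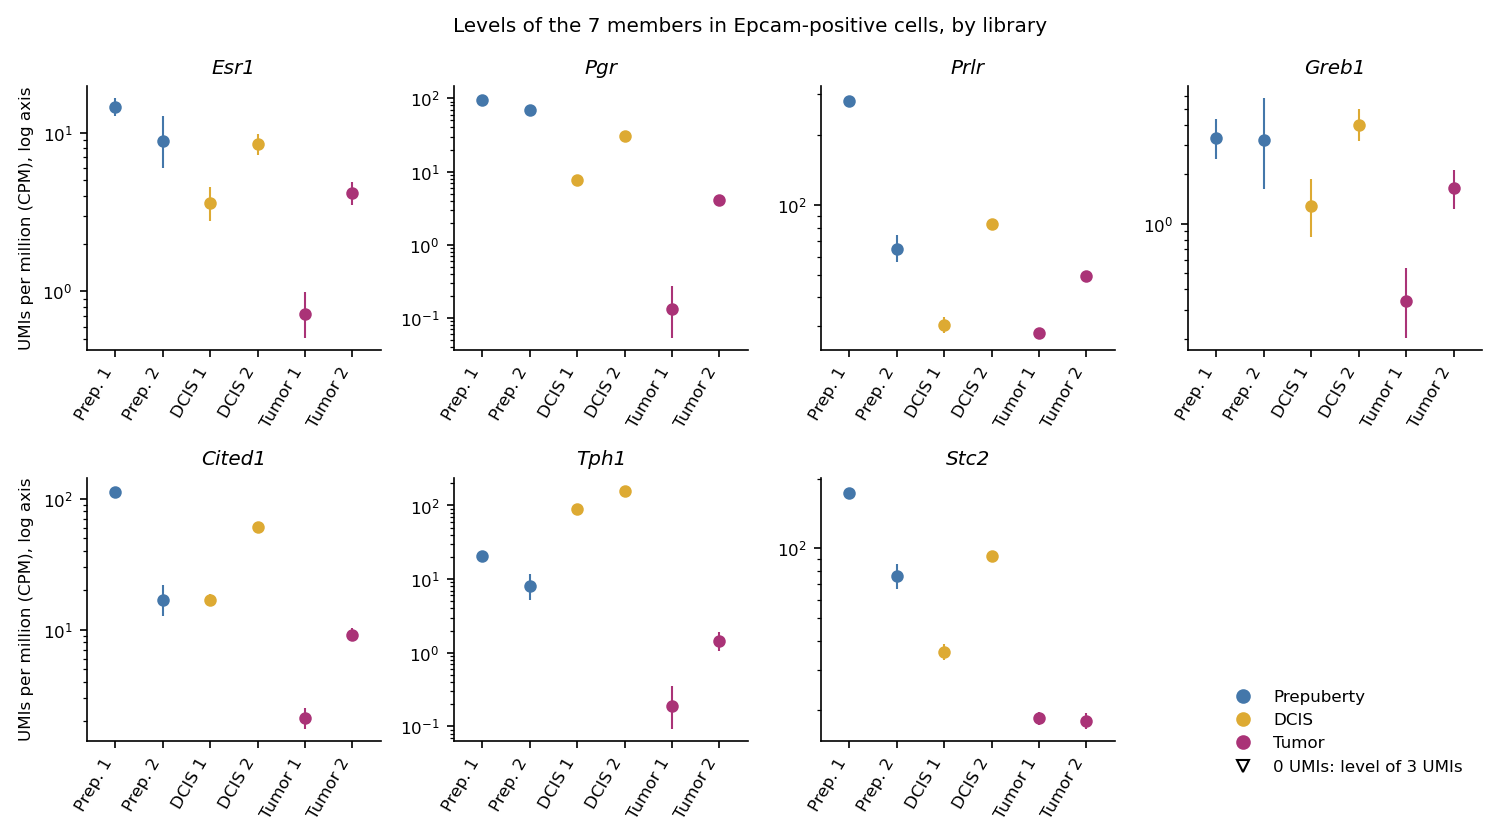
Levels of the 7 genes in Epcam-positive cells, in CPM on a log axis, 1 point per library with its exact 95% Poisson interval (counting error only). Both Tumor libraries (purple) lie below both Prepuberty libraries (blue) in every panel, and Tph1 is highest in the DCIS libraries (yellow).

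The steroid receptors were lowest in Tumor 1. Esr1 stood at 14.5 and 8.90 CPM in Prepuberty, 3.58 and 8.48 in DCIS and 0.720 and 4.15 in Tumor. Tumor 2 lay above DCIS 1, so the DCIS and Tumor libraries overlapped. The log2 fold change of Esr1 was -0.83 ± 0.77 (SE, 2 libraries a state) from Prepuberty to DCIS and -1.81 ± 0.79 from DCIS to Tumor. Pgr stood at 96.2 and 70.0 CPM in Prepuberty, 7.78 and 30.6 in DCIS, and 0.133 and 4.09 in Tumor. The 3 states did not overlap for Pgr, and Tumor 1 held 7 Pgr UMIs in 3511 cells (0.133 CPM, exact 95% Poisson interval 0.0533 to 0.273). The log2 fold change of Pgr was -1.96 ± 1.15 to DCIS and -3.74 ± 1.25 from DCIS to Tumor.

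Prlr, the prolactin receptor gene, stood at 281 and 65.0 CPM in Prepuberty, 30.5 and 83.0 in DCIS, and 28.2 and 49.2 in Tumor. Prepuberty 1 was far above the others, and it also differed from them in the make-up of its Epcam-positive cells, given with the gates. The remaining 5 libraries overlapped between states, and DCIS 2 exceeded Prepuberty 2. The fitted log2 fold change was -1.49 ± 0.76 from Prepuberty to DCIS and -0.98 ± 0.75 from DCIS to Tumor. Without Prepuberty 1 the first of these became 0.10.

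Among the estrogen-linked regulators, Greb1 was sparse, with 11 to 83 UMIs a library. Its levels were 3.33 and 3.26 CPM in Prepuberty, 1.28 and 4.02 in DCIS and 0.341 and 1.64 in Tumor, and neither neighbouring pair of states separated. Cited1 stood at 112 and 16.9 CPM in Prepuberty, 16.9 and 61.4 in DCIS and 2.10 and 9.14 in Tumor. Its Prepuberty and DCIS libraries overlapped, and both Tumor libraries lay below all 4 others. The log2 fold change of Cited1 from DCIS to Tumor was -3.29 ± 1.10.

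Tph1 and Stc2 bear on secreted products, serotonin and a glycoprotein. Tph1 had the largest log2 fold changes of the 7 genes into and out of DCIS. It stood at 20.6 and 8.01 CPM in Prepuberty, 90.4 and 159 in DCIS and 0.189 and 1.43 in Tumor. No states overlapped. The log2 fold change was 3.21 ± 0.81 from Prepuberty to DCIS and -7.80 ± 1.01 from DCIS to Tumor, and Tumor 1 held 10 Tph1 UMIs. Stc2 stood at 173 and 75.9 CPM in Prepuberty, 35.8 and 93.0 in DCIS and 18.5 and 18.0 in Tumor. Stc2 in DCIS 2 exceeded Prepuberty 2, whereas both Tumor libraries lay close together and below all 4 others, with a log2 fold change of -2.20 ± 0.60 from DCIS to Tumor.

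To separate the number of carrying cells from the content of each, positive cells were counted first. Cells were thinned at random to 3000 UMIs each, and shallower cells were left out, which kept 908, 232, 1513, 1518, 3289 and 1655 Epcam-positive cells in the order Prepuberty 1 and 2, DCIS 1 and 2, Tumor 1 and 2. Given in this order, the share of cells with a Pgr UMI was 20.2%, 11.6%, 2.45%, 8.37%, 0% (0 of 3289) and 1.27%. Before thinning the Pgr shares were 43.7%, 27.0%, 6.03%, 18.2%, 0.199% and 2.29%. For Cited1 the thinned shares were 16.9%, 3.02%, 2.91%, 9.16%, 0.517% and 1.63%, and a positive cell held on average 2.10, 2.14, 1.86, 2.31, 1.06 and 3.44 UMIs. The share of cells with Cited1 was thus lowest in both tumours, while the content of a positive cell was lowest in Tumor 1 and highest in Tumor 2.

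Prlr behaved differently between the tumours. The thinned share of Prlr-positive cells was 38.5% and 7.76% in Prepuberty, 6.15% and 14.8% in DCIS and 8.33% and 8.22% in Tumor, so the tumours did not lie below DCIS. A positive cell held 1.19 Prlr UMIs in Tumor 1, the lowest of the 6 libraries, and 2.60 in Tumor 2, the highest. Before thinning, 50% of all Prlr UMIs came from 233 of 3511 cells in Tumor 1 and from 24 of 1748 cells in Tumor 2, and the fullest cell held 10 and 89 Prlr UMIs. Prlr was thus spread thinly over many cells in Tumor 1 and concentrated in few cells in Tumor 2.

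Pgr and Cited1 were concentrated in Tumor 2 as well. There 50% of the 137 Pgr UMIs lay in 5 cells, with up to 34 in a cell, and 50% of the 306 Cited1 UMIs lay in 6 cells, with up to 44 in a cell. In Tumor 1 no cell held more than 1 of the 7 Pgr UMIs. Stc2-positive cells made up 31.1%, 11.2%, 5.42%, 14.4%, 4.96% and 3.44% of the thinned cells, and a positive cell held 1.12 Stc2 UMIs in Tumor 1 and 2.46 in Tumor 2. Esr1 was found in 0.213% to 3.85% and Greb1 in 0.0304% to 1.72% of thinned cells, with close to 1 UMI per positive cell, so their shares and levels cannot be separated at this depth.

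The Tph1 share was 4.30% and 0.431% in Prepuberty and 6.94% and 14.6% in DCIS, and a positive cell held 2.23 and 5.00 Tph1 UMIs in Prepuberty (the latter value from 1 cell) against 4.34 and 3.84 in DCIS. Before thinning, 50% of the Tph1 UMIs lay in 17 of 1707 cells in DCIS 1, with up to 162 in a cell, and in 47 of 1641 cells in DCIS 2, with up to 75.

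Free RNA can give UMIs to cells that do not express a gene, and was gauged in immune cells. These had Ptprc at 1 UMI or more and Epcam, Pecam1, Pdgfra and T antigen at 0, so immune cells with a UMI of those genes are not in the gauge. Of 21 to 126 thinned immune cells a library, 0 held Pgr, Esr1, Greb1 or Tph1 in any library, and at most 1 a library held each of Prlr, Cited1 and Stc2. Their median depth was 2490 to 6739 UMIs before thinning, against 6997 to 16117 in Epcam-positive cells. With so few immune cells the limit that a count of 0 or 1 allows is wide, and low shares of Prlr, Stc2 or Cited1 cannot be set apart from this background.

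Of the 21 pairs of the 7 genes, 15 to 20 were found together more often than apart in each library except Tumor 1, meaning that cells with the first gene held the second more often than cells without it. In Tumor 1 this held for 1 of the 15 pairs with both genes detected. There Esr1 was found in 7, Greb1 in 1, Tph1 in 2 and Cited1 in 17 thinned cells, so pairs with these genes are too sparse to be read. Prlr and Stc2 were found in 274 and 163 cells of Tumor 1, and Stc2 in 2.92% of Prlr-positive and 5.14% of Prlr-negative cells. Of Pgr-positive cells, the share with Prlr was 74.3% and 37.0% in Prepuberty, 51.4% and 47.2% in DCIS and 81.0% in Tumor 2, against 29.5%, 3.90%, 5.01%, 11.8% and 7.28% of Pgr-negative cells. Tumor 1 had no Pgr-positive cell after thinning. Of Cited1-positive cells, 77.3% in DCIS 1 and 61.2% in DCIS 2 held Tph1, against 4.83% and 9.93% of the others, while in Prepuberty 1 the shares were 13.1% and 2.52%. Cells with UMIs of 3 or more of the 7 genes numbered 167, 9, 56, 155, 0 and 29, or 18.4%, 3.88%, 3.70%, 10.2%, 0% and 1.75%. The count of 0 among 3289 cells of Tumor 1 has an exact upper limit of 0.112%.

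A gate that leaves out the 7 genes was set with 6 other markers of hormone-sensing luminal cells (Prom1, Foxa1, Fxyd2, Cxcl15, Tbx3, Wnt4). These markers were also chosen with earlier results of these data known. A thinned cell entered it with at least 2 of the 6, and with more of them than of the secretory luminal (Elf5, Kit, Csn3, Aldh1a3, Lalba, Trf) or basal list (Krt5, Krt14, Krt17, Acta2, Mylk, Cnn1, Oxtr, Trp63). The gate held 165 of 908 cells (18.2%, exact 95% interval 15.7 to 20.8) in Prepuberty 1, 12 of 232 (5.17%, 2.70 to 8.86) in Prepuberty 2, 41 of 1513 (2.71%, 1.95 to 3.66) in DCIS 1 and 131 of 1518 (8.63%, 7.27 to 10.2) in DCIS 2. In Tumor 1 it held 1 of 3289 cells (0.0304%, 0.000770 to 0.169) and in Tumor 2 31 of 1655 (1.87%, 1.28 to 2.65). Both tumours lay below all 4 glands. With Ly6a and Areg added to the markers, at least 2 of 8, the gate held 36.9% and 14.7% in Prepuberty, 9.58% and 18.8% in DCIS and 8.0% (263 cells) and 7.55% (125 cells) in Tumor. The tumours again lay below all 4 glands, but the near absence of gated cells in Tumor 1 depends on the marker list, and Areg was highest in that library, at 411 CPM. The basal gate held 8.92% and 41.8% of cells in Prepuberty, 32.7% and 38.2% in DCIS and 25.0% and 39.8% in Tumor, and the secretory gate 22.9% and 12.5%, 7.20% and 11.6%, and 24.1% and 6.59%. Prepuberty 1 thus had the lowest basal share, and its basal markers summed to 422 CPM over Epcam-positive cells against 1352 to 2475 in the other 5 libraries. The part of this make-up in the differences from Prepuberty was not tested beyond the split of levels by gate. The difference in mean share was -4.72 percentage points from DCIS to Tumor, with an SD between libraries of 4.38, and -6.0 points from Prepuberty to DCIS, with an SD of 10.1, so the latter is within the spread. Without Prepuberty 1 the difference to DCIS became 0.497 points. A cell that has lost these markers leaves the gate, so the share counts cells that still carry the programme, and a cell that had lost it is counted with the rest.

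**Figure D2:**
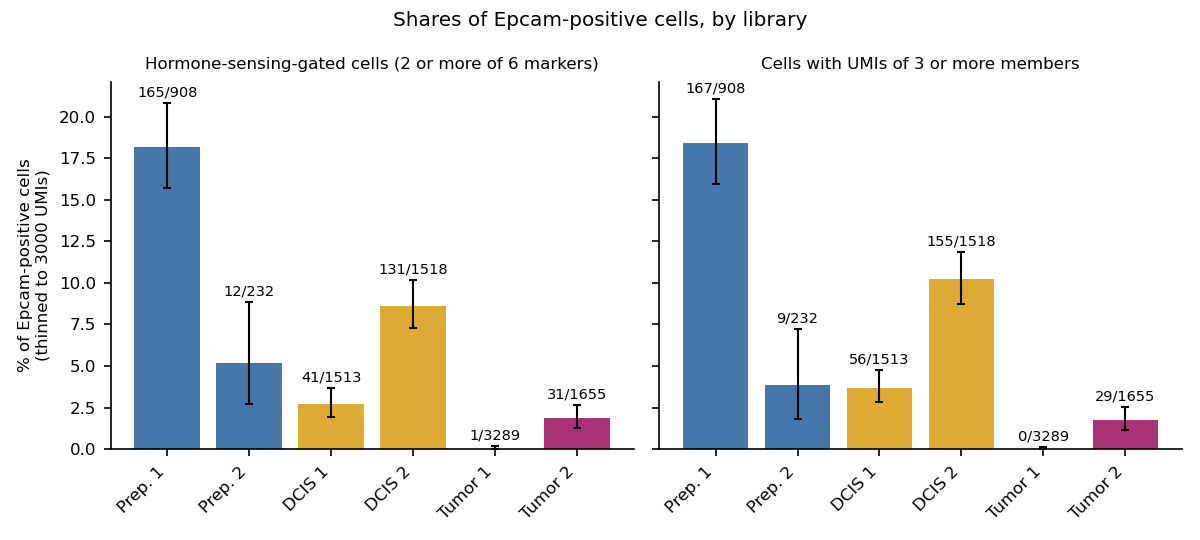
Shares of Epcam-positive cells, thinned to 3000 UMIs, that passed the hormone-sensing gate (left) and that held UMIs of 3 or more of the 7 genes (right), in percent from 0, with cell numbers and exact 95% binomial intervals. Tumor 1 had 1 and 0 such cells, Tumor 2 had 31 and 29, and Prepuberty 1 and DCIS 2 were highest within their states.

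The markers behind the gate were also measured on their own. In the edgeR fit, 1 of the 6, Prom1, fell from DCIS to Tumor and from Prepuberty to Tumor, and the other 5 did not pass the threshold, where 0.862% and 1.96% of all genes were called lower. Prom1, a membrane glycoprotein gene used to mark hormone-sensing luminal cells, stood at 41.3 and 25.2 CPM in Prepuberty, 35.5 and 32.8 in DCIS and 7.22 and 12.1 in Tumor. The log2 change from DCIS to Tumor was -2.24 ± 0.36 (edgeR adjusted p = 0.0490) and from Prepuberty to Tumor -2.07 ± 0.36 (edgeR adjusted p = 0.0419). Cxcl15, a chemokine gene, stood at 243 and 46.9 CPM in Prepuberty, 47.6 and 131 in DCIS and 0.0189 and 3.26 in Tumor, and the log2 difference from DCIS to Tumor was -6.34 ± 1.72 (edgeR adjusted p = 0.0944). Tbx3 and Fxyd2 had log2 differences of -2.12 and -1.75, and Wnt4, at 13.2 and 8.39 CPM in Tumor, overlapped both other states. The list's median was -2.18 from DCIS to Tumor against 0.07 over all genes. With the replicate number as a block, Prom1 had an edgeR adjusted p = 0.0662 from DCIS to Tumor and 0.0557 from Prepuberty to Tumor. Fxyd2 passed from Prepuberty to Tumor with that block (edgeR adjusted p = 0.0392). Leaving out Prepuberty 1, Prepuberty 2, DCIS 1, DCIS 2 or Tumor 2 gave Prom1 from DCIS to Tumor an edgeR adjusted p = 0.0791, 0.0690, 0.177, 0.244 and 0.0532. From Prepuberty to Tumor the same libraries gave Prom1 an edgeR adjusted p = 0.154, 0.0854, 0.0839, 0.0879 and 0.0530.

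Within the hormone-sensing gate Prlr, Pgr and Cited1 were not lower in Tumor 2. Prlr stood there at 562 and 210 CPM in Prepuberty, 289 and 317 in DCIS and 1591 in Tumor 2. Pgr stood at 188, 119, 80.3, 102 and 237 CPM in the same order, and Cited1 at 266, 76.8, 187, 213 and 390. For all 3, Tumor 2 was the highest of the 5 libraries. Tph1 instead stood at 59.3 and 0 CPM in Prepuberty, 1294 and 688 in DCIS and 89.0 in Tumor 2. The single gated cell of Tumor 1 held 1 Stc2 UMI and no UMI of the other 6 genes. The 31 gated cells of Tumor 2 come from 1 library, and nothing in them can be compared across tumours.

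To keep the gate free of the gene measured yet less sparse, a leave-one-out gate took, for each gene, cells with at least 3 of the 6 markers and the 6 other genes. It held 19 to 24 cells in Prepuberty 2, 34 to 37 in Tumor 2, 75 to 97 in DCIS 1 and more elsewhere, while Tumor 1 had at most 1. Inside this gate Prlr stood at 542, 248, 269, 283 and 2198 CPM (Tumor 2 last) and outside it at 181, 47.5, 16.0, 44.6 and 23.0, with 28.2 in Tumor 1. Stc2 stood at 333, 271, 439, 347 and 782 CPM inside, and at 107, 53.0, 13.9, 42.6 and 7.57 outside, with 18.5 in Tumor 1. Esr1 stood at 25.6, 15.4, 16.6, 24.0 and 115 CPM inside, and at 7.99, 7.47, 2.77, 4.76 and 2.76 outside, with 0.725 in Tumor 1. For these 3 genes the gated cells of both DCIS libraries lay within or above the range of Prepuberty, and those of Tumor 2 lay above it. At 6000 UMIs per cell, Esr1 of DCIS 1 lay below that range, at 13.4 CPM against 20.8 and 15.8 in Prepuberty. A looser gate of at least 2 of the 12 genes also held 24 to 50 cells of Tumor 1. These had Prlr at 20.3 CPM (9 UMIs), Stc2 at 4.22 (2 UMIs), Cited1 at 2.51 (2 UMIs) and Tph1 at 1.17 (1 UMI). No UMI of Esr1, Pgr or Greb1 was found (for Pgr at most 4.32 CPM by its interval). These levels lay below every other library for all 7 genes, but the Greb1 interval reached 4.39 CPM, above the 3.21 and 3.26 of Prepuberty. Tumor 1 cells outside this gate had more Prlr (28.3 CPM) and Stc2 (18.7) than those inside, and less Cited1 (2.11) and Tph1 (0.175). In that gate Tumor 2 had Prlr at 1186, Stc2 at 341 and Esr1 at 47.8 CPM. Cells enter this gate through detected UMIs of the other genes, so a cell low in all of them is counted outside.

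Pgr and Tph1 did otherwise. Inside the leave-one-out gate, Pgr stood at 176 and 178 CPM in Prepuberty, 67.3 and 91.5 in DCIS and 271 in Tumor 2, so that DCIS lay below Prepuberty also within gated cells. With at least 2 of the 12 genes Pgr of Tumor 2 stood at 115 CPM against 156 and 141 in Prepuberty, so its place above Prepuberty depends on the gate. Outside the gate Pgr went from 56.4 and 62.0 CPM in Prepuberty to 4.14 and 17.3 in DCIS and 0.134 and 0.608 in Tumor. Tph1 stood at 38.8 and 43.8 CPM within gated Prepuberty cells, 1154 and 625 in DCIS and 98.6 in Tumor 2. Outside the gate Tph1 stood at 10.0 and 2.41 CPM in Prepuberty, 37.3 and 70.5 in DCIS and 0.191 and 0.0912 in Tumor. Cited1 stood at 237, 53.0, 198, 236 and 563 CPM inside, and outside at 45.5, 12, 6.39, 22.3, 2.12 and 1.46 with Tumor 1 included. Greb1 rested on 1 to 51 gated UMIs, with 1.72 and 2.34 CPM in Prepuberty, 13.0 and 12.6 in DCIS and 24.1 in Tumor 2.

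**Figure D3:**
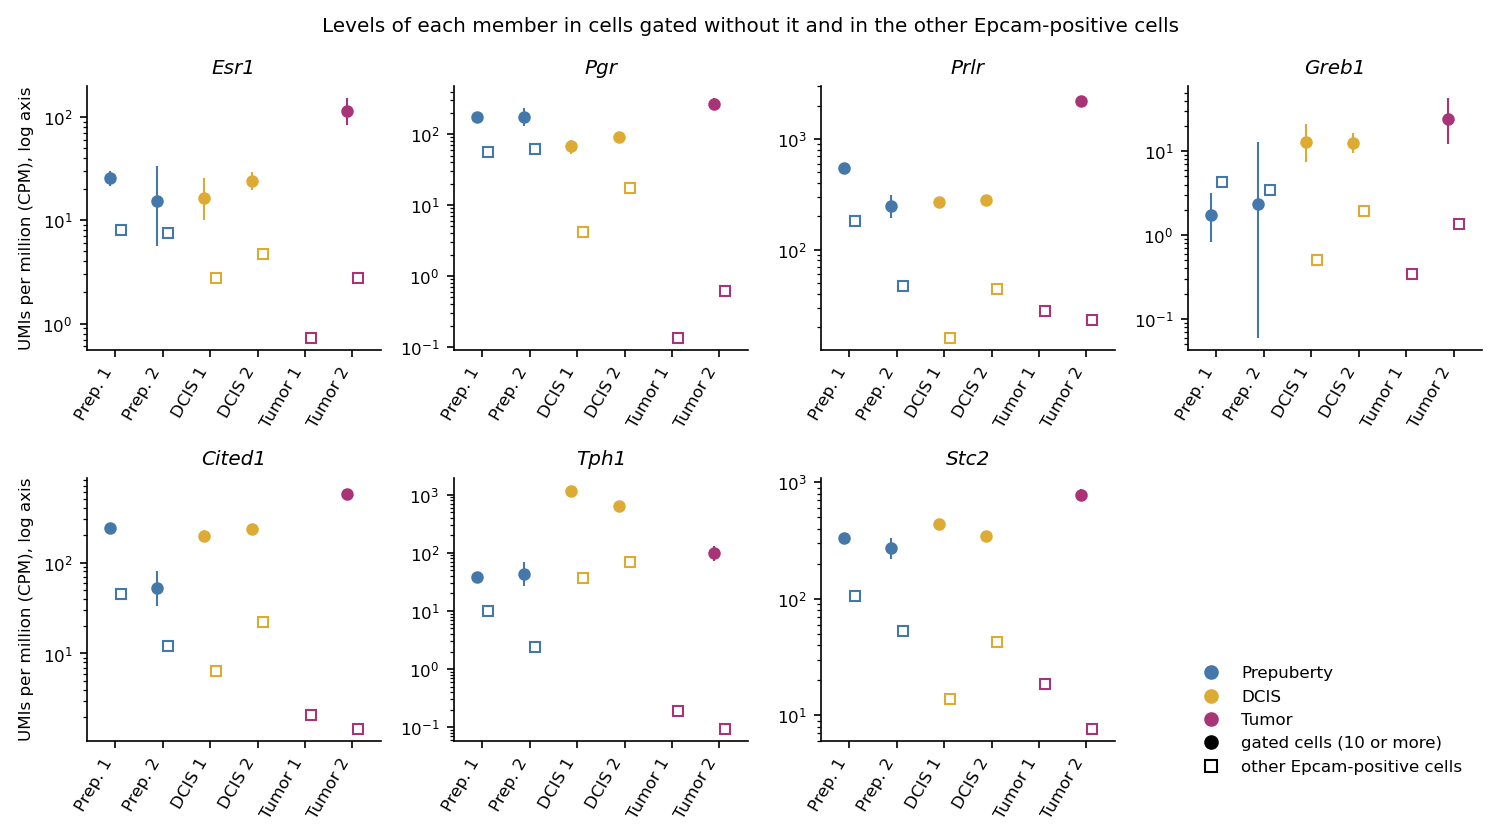
Levels of each gene, in CPM on a log axis, in cells of a hormone-sensing gate set without that gene (filled, with exact 95% Poisson intervals, gates of 10 cells or more) and in the other Epcam-positive cells (open squares). Gated cells lie above the others in all panels except Greb1 in Prepuberty, Tumor 1 has open squares alone, and Tph1 of gated cells is highest in DCIS.

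The change in level was then split into a part from the UMI shares of the gates (hormone-sensing, secretory, basal, other) and a part from the levels within gates. The summed level of the 7 genes was 474 CPM in Prepuberty, 316 in DCIS and 69.0 in Tumor (means of 2 libraries). Of the difference from DCIS to Tumor, 45.5% lay in the make-up, and the 4 pairings of single libraries gave 14.5% to 49.9%. At 6000 UMIs per cell it lay above that range, as given in the closing section, so the range does not bound it. Of the difference from Prepuberty to Tumor, 51.1% lay in the make-up, with 6.56% to 58.1% over the pairings. From Prepuberty to DCIS the value was 58.5%, with 15.0% to 59.5% over the pairings, and it became 37.2% with another random thinning, so it is not settled by these data. With the leave-one-out gate, which has gated and other cells alone, the make-up took more than all of the difference from DCIS to Tumor for Esr1 (217%), Pgr (112%), Prlr (689%), Greb1 (126%), Cited1 (128%) and Stc2 (121%), with the part within gates above 0. With at least 2 of the 12 genes the part within gates was below 0 for Pgr (-5.18 CPM), Greb1 (-0.30), Cited1 (-6.98) and Stc2 (-4.98) and above 0 for Esr1 (0.38) and Prlr (66.7), so its sign for those 4 genes depends on the gate. For Prlr the percentage ran from -193 without DCIS 2 (gate of markers) to 977 with the leave-one-out gate at 6000 UMIs per cell, so its direction is not settled. A percentage over 100 means that the part within gates had the opposite sign. For Tph1 the make-up took 31.1%, and the part within gates was -86.5 CPM. The positive parts at 3 of the 12 genes rest on the 34 to 37 gated cells of Tumor 2, since Tumor 1 had at most 1.

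The higher Tph1 of DCIS lay within gates. Its mean level differed by 112 CPM from Prepuberty, of which the make-up part was -23.1 and the part within gates 135 CPM. For Pgr, the difference of -64.3 CPM from Prepuberty to DCIS had -9.16 CPM in the make-up and -55.1 CPM within gates, and the leave-one-out gate gave -8.20 and -56.1 CPM. For Prlr 22.6% of the difference to DCIS lay in the make-up (20.2% to 33.4% over the pairings) and for Stc2 36.7% (21.9% to 44.9%). Without Prepuberty 1 these became 9.04% and 13.1%, of differences that shrank from -116 to -8.47 CPM and from -59.2 to -11.2 CPM. For Cited1 the value was 44.2% with the gate of markers and 86.1% with the leave-one-out gate, so the split depends on the gate.

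Among cells of Tumor 2, the 29 with 3 or more of the 7 genes were looked at by themselves. Since they were taken for holding these genes, their levels of them are high by selection and are given as a description. They held Prlr at 2401 CPM, Stc2 at 916, Cited1 at 743, Pgr at 320, Esr1 at 129 and Tph1 at 117. All 29 also held the luminal keratins Krt8 and Krt18 and the luminal transcription factor Gata3, and 25 of 29 held Foxa1, the gene of a factor that opens chromatin for the estrogen receptor. Of the other gate markers, Cxcl15 was found in 22 of the 29, Wnt4 in 16, Tbx3 in 15, Prom1 in 14 and Fxyd2 in 10. The fibroblast gene Dcn was found in 10 of the 29, at 542 CPM, while Pdgfra and Lum were at 0. The T-antigen transcript was found in 1 of the 29 (3.45%), against 848 of 1459 cells (58.1%) with none of the 7 genes. In the hormone-sensing gate of the same library, set by other markers, it was found in 7 of 31 cells (22.6%). The median depth of the 29 was 10351 against 17558 UMIs in cells with none, and the part of depth in this difference was not tested.

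Cells with and without a T-antigen UMI were compared within libraries, a contrast that did not choose the genes. The fit used 5 libraries, with library as a block, and left out Prepuberty 2, where 3 Epcam-positive cells had the transcript. Cited1 and Tph1 were lower in T-antigen cells, and the other 5 genes had values below 0 that did not pass the threshold. Of the 7 genes 2 were called, where 7.27% of 14085 genes were, 5.43% lower and 1.84% higher. In 5 of the 7 genes every library had the lower CPM in T-antigen cells, where 11.2% of all genes did. The median of the 7 was -1.13 on the log2 scale against 0.02 over all genes.

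Cited1 stood at 48.7 CPM with and 130 CPM without T antigen in Prepuberty 1, 4.33 and 23.8 in DCIS 1, 24.6 and 70.8 in DCIS 2, 2.20 and 1.74 in Tumor 1, and 3.23 and 21.5 in Tumor 2. It was lower in 4 of 5 libraries, Tumor 1 being the exception. The log2 fold change was -1.68 ± 0.34 (edgeR adjusted p = 0.0271). Leaving out DCIS 1, DCIS 2 or Prepuberty 1 gave edgeR adjusted p = 0.121, 0.0793 and 0.0878 for Cited1. Tph1 stood at 7.08 and 24.3 CPM in Prepuberty 1, 26.6 and 125 in DCIS 1, 78.4 and 180 in DCIS 2, 0.215 and 0.0918 in Tumor 1 (9 UMIs and 1), and 0.310 and 3.77 in Tumor 2. The log2 fold change of Tph1 was -1.86 ± 0.29 (edgeR adjusted p = 0.0102), and without DCIS 1 the edgeR adjusted p was 0.0887.

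The receptors differed less clearly. Pgr had a log2 difference of -1.30 ± 0.42 (edgeR adjusted p = 0.101), Prlr of -0.63 ± 0.26 (edgeR adjusted p = 0.174) and Esr1 of -0.49 ± 0.20 (edgeR adjusted p = 0.177). Pgr went from 99.4 CPM without to 84.6 with T antigen in Prepuberty 1, and from 10.8 to 0.884 in Tumor 2. Greb1 was at -1.13 ± 0.29 (edgeR adjusted p = 0.0573) and Stc2 at -1.10 ± 0.32 (edgeR adjusted p = 0.0788). In Tumor 1 Prlr stood at 28.0 CPM with and 28.9 without T antigen, with overlapping counting intervals.

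**Figure D4:**
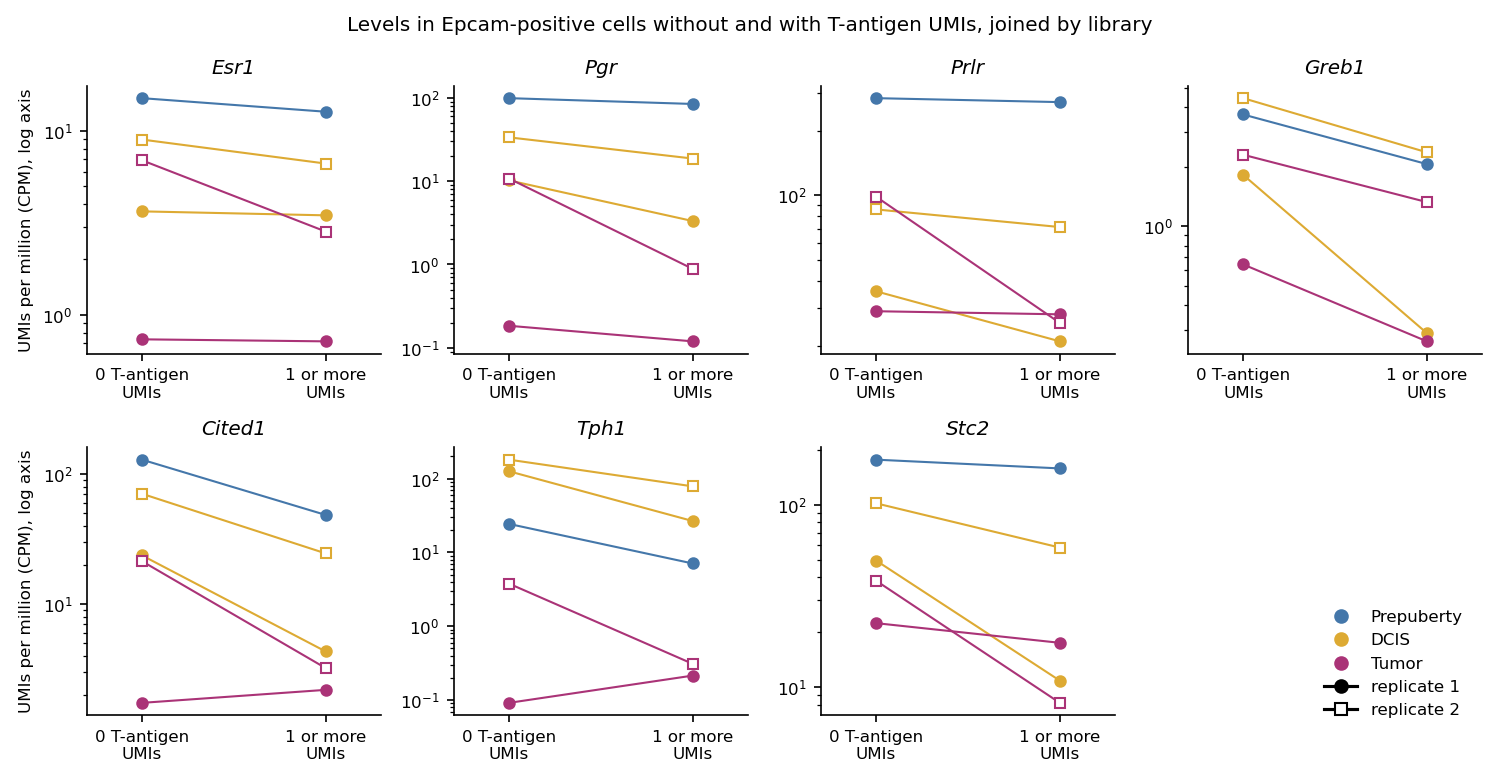
Levels of the 7 genes in Epcam-positive cells with and without a T-antigen UMI, in CPM on a log axis, for the 5 libraries fitted, each pair of points from 1 library joined by a line. Cited1 and Tph1 are lower with T antigen in 4 of 5 libraries, Tumor 1 being the exception, and the other 5 genes in all 5.

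Other properties differed between these cells too. T-antigen cells were deeper, with median UMIs of 27788 against 10292 in Prepuberty 1, 15379 against 7474 in DCIS 1, 23746 against 7648 in DCIS 2, 15214 against 7957 in Tumor 1 and 20996 against 11135 in Tumor 2. Fibroblast markers summed to 116 CPM with and 928 without T antigen in Prepuberty 1, 46.2 and 788 in DCIS 1, 67.9 and 372 in DCIS 2, 88.2 and 953 in Tumor 1 and 188 and 315 in Tumor 2, with all 4 markers detected in each. Immune markers summed to 0 to 8.76 CPM with and 1.92 to 178 without. Endothelial markers were lower with T antigen in every library fitted, at 3.80 to 19.1 CPM with and 14.9 to 97.8 without. Basal markers stood at 262 CPM with and 466 without in Prepuberty 1, 998 and 1951 in DCIS 1 and 504 and 2497 in DCIS 2. In Tumor 1 they stood at 1330 and 1437, and in Tumor 2 they were higher with T antigen, at 2572 and 2272. With T antigen called only after thinning each cell to the same depth, the log2 fold change was -3.17 for Tph1 (edgeR adjusted p = 0.000174), -1.02 for Cited1 (edgeR adjusted p = 0.0257), -1.06 for Pgr (edgeR adjusted p = 0.0267) and -0.64 for Prlr (edgeR adjusted p = 0.0115), so that Pgr and Prlr also passed. In cells free of Ptprc, Pecam1 and Pdgfra UMIs it was -2.13 for Tph1 (edgeR adjusted p = 0.0136), -2.04 for Cited1 (edgeR adjusted p = 0.0143) and -1.38 for Stc2 (edgeR adjusted p = 0.0483). Both of these settings, and the one outside the hormone-sensing gate, were chosen after the data were seen. With no library block, neither Cited1 nor Tph1 passed.

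T-antigen cells passed the hormone-sensing gate at 6.36% against 19.8% in Prepuberty 1, 0.813% against 3.32% in DCIS 1, 4.60% against 9.15% in DCIS 2 and 0.745% against 3.35% in Tumor 2, with 1 of 2297 against 0 of 992 cells in Tumor 1. Outside the gate the log2 fold change was -1.48 for Cited1 (edgeR adjusted p = 0.0313), -1.36 for Tph1 (edgeR adjusted p = 0.0190), -0.20 for Prlr (edgeR adjusted p = 0.502) and -0.10 for Esr1 (edgeR adjusted p = 0.753). Greb1 (-1.01, edgeR adjusted p = 0.125), Pgr (-0.80, edgeR adjusted p = 0.140) and Stc2 (-0.73, edgeR adjusted p = 0.108) were also below 0 there and did not pass. The lower Cited1 and Tph1 was thus also measured among cells outside the gate.

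Hormone-pathway genes that are not among the 7 were taken from lists, and their counts stand against 5.43% of all genes called lower in T-antigen cells and 1.84% higher. Of 6 hormone-sensing markers 1 was lower in T-antigen cells, Cxcl15 (-1.35 ± 0.33, edgeR adjusted p = 0.0496, above 0.05 in 8 of 15 alternatives, among them without DCIS 1, DCIS 2 or Tumor 1 at 0.203, 0.118 and 0.0802). Of 10 tested estrogen, progesterone and paracrine targets 1 was lower, Cxcl12 (-2.68 ± 0.29, edgeR adjusted p = 0.0019), a chemokine gene that fibroblasts also express, with the fibroblast marker sums given above moving the same way. Of 14 tested steroid receptors and coregulators 1 was lower, Pgrmc1 (-0.38 ± 0.08, edgeR adjusted p = 0.0303, and without DCIS 1, DCIS 2, Prepuberty 1 or Tumor 1 at 0.117, 0.0786, 0.0840 and 0.0818), and of 9 prolactin pathway genes 0 passed.

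Across states in Epcam-positive cells, 3 of 9 prolactin pathway genes fell from Prepuberty to Tumor, Jak2, Stat5a and Stat5b, and 0 rose, where 1.96% of all genes were called lower and 1.3% higher, with a list median of -1.37 against 0.08 over all genes. This list and those that follow were chosen with earlier results of these data known, so their counts are given as a description. Jak2, the kinase bound to the prolactin receptor, stood at 55.7 and 46.6 CPM in Prepuberty, 19.4 and 29.9 in DCIS and 5.04 and 8.57 in Tumor, and its log2 fold change to Tumor was -3.18 ± 0.37 from Prepuberty (edgeR adjusted p = 0.0242) and -2.28 ± 0.35 from DCIS (edgeR adjusted p = 0.0434). Stat5a stood at 87.8 and 60.2 CPM in Prepuberty, 23.1 and 33.1 in DCIS and 6.90 and 16.0 in Tumor, with -3.0 ± 0.44 from Prepuberty to Tumor (edgeR adjusted p = 0.0326). Stat5b, its close relative, changed by -2.29 ± 0.38 (edgeR adjusted p = 0.0387), from 34.1 and 21.1 CPM to 6.18 and 7.35. The states did not overlap for these 3 genes. Socs2 and Socs3, feedback inhibitors of the pathway, Ghr, the growth hormone receptor gene, and Elf5, a Stat5-induced factor of the secretory lineage, did not pass the threshold. With the replicate number as a block, Stat5b from Prepuberty to Tumor and Jak2 from DCIS to Tumor missed it, at edgeR adjusted p = 0.0514 and 0.0622. Without Prepuberty 1 the calls were lost, with edgeR adjusted p = 0.0907 for Jak2, 0.118 for Stat5a and 0.148 for Stat5b, and without Prepuberty 2 they were 0.0824, 0.0859 and 0.0854. Stat5a also missed the threshold without DCIS 1 or DCIS 2, at 0.0542 and 0.0577, and Stat5b without DCIS 1, DCIS 2 or Tumor 2, at 0.0728, 0.0779 and 0.0619. Jak2 from DCIS to Tumor missed it without Prepuberty 1, Prepuberty 2, DCIS 1 or DCIS 2, at 0.0877, 0.0816, 0.105 and 0.255.

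Of 10 tested estrogen, progesterone and paracrine targets, Ccnd1 rose and Xbp1 and Cxcl12 fell from Prepuberty to Tumor, where 1.3% of all genes were called higher and 1.96% lower, and the list's median was 0.04 against 0.08 over all genes. Ccnd1, the cyclin D1 gene, stood at 19.3 and 32.6 CPM in Prepuberty, 7.93 and 11.1 in DCIS and 136 and 122 in Tumor, with log2 fold changes of 2.14 ± 0.36 from Prepuberty (edgeR adjusted p = 0.0398) and 3.39 ± 0.38 from DCIS (edgeR adjusted p = 0.0334). Xbp1, a transcription factor of luminal and secretory cells, fell from 166 and 160 CPM to 62.0 and 81.2 (-1.42 ± 0.25, edgeR adjusted p = 0.0419). Cxcl12 fell from 12 and 31.4 to 3.58 and 4.24 CPM (-2.64 ± 0.46, edgeR adjusted p = 0.0419). Its mean level was 136 CPM in fibroblasts, the fibroblast markers of Epcam-positive cells went from 755 and 433 to 267 and 229 CPM, and their part in this fall was not tested. Areg, an estrogen-induced growth factor, stood at 83.5 and 27.3 CPM in Prepuberty, 47.2 and 66.1 in DCIS and 411 and 99.2 in Tumor, and did not pass the threshold (2.04 ± 0.84 from Prepuberty to Tumor, edgeR adjusted p = 0.173). Nrip1, Igfbp4 and Rara did not pass it either. With the replicate number as a block, Ccnd1, Xbp1 and Cxcl12 from Prepuberty to Tumor missed it, at edgeR adjusted p = 0.05003, 0.0557 and 0.0510. Ccnd1 from DCIS to Tumor then missed it too (edgeR adjusted p = 0.0538). Without Prepuberty 1 the edgeR adjusted p was 0.171 for Ccnd1, 0.173 for Xbp1 and 0.0907 for Cxcl12. Leaving out any of Prepuberty 2, DCIS 1 or DCIS 2 also took all 3 above 0.05, to between 0.0692 and 0.135, as did leaving out Tumor 2 for Xbp1 (0.0529) and Cxcl12 (0.0655). Ccnd1 from DCIS to Tumor missed it without Prepuberty 1, Prepuberty 2, DCIS 1 or DCIS 2, at 0.0679, 0.0620, 0.123 and 0.184.

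Of 14 tested steroid receptors and coregulators, 0 passed the threshold in any of the 3 comparisons, among them Pgrmc1, Ncor1, Gata3 and Fkbp4. Gata3, a luminal transcription factor that acts with the estrogen receptor, stood at 290 and 97.0 CPM in Prepuberty, 103 and 136 in DCIS and 64.7 and 84.0 in Tumor. The edgeR adjusted p of Gata3 was 0.112 from Prepuberty to Tumor (-1.66 ± 0.54). Esr2, Calca and Tff3 were too low to be tested.

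In the stroma, fibroblasts were taken as cells with a Pdgfra UMI and no UMI of Epcam, Ptprc, Pecam1 or T antigen. They numbered 1626 and 1246 in Prepuberty, 390 and 763 in DCIS and 47 and 113 in Tumor, and the small tumour groups limit every value. Fibroblast markers summed to 5665 to 15391 CPM, epithelial markers to 8.75 to 82.2 CPM and basal markers to 23.7 to 47.5 CPM in the glands and 567 and 573 CPM in the tumours, and a part of the latter in the results below was not tested. Of the 7 genes, 5 had enough counts to be tested, and Prlr and Tph1, with at most 26 and 13 UMIs a library, did not.

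From Prepuberty to Tumor the fitted log2 fold change in fibroblasts was below 0 for Pgr, Greb1 and Cited1 and above 0 for Esr1 and Stc2, and the difference from Epcam-positive cells was not tested. Esr1 stood at 2.05 and 5.31 CPM in Prepuberty, 0.876 and 2.57 in DCIS and 6.04 (3 UMIs) and 11.2 (18 UMIs) in Tumor, so both tumours lay above all 4 glands (edgeR adjusted p = 0.527 from Prepuberty, 0.234 from DCIS). Stc2 stood at 4.81 and 5.09 CPM in Prepuberty, 10.2 and 12.3 in DCIS and 20.1 (10 UMIs) and 10.6 (17 UMIs) in Tumor, and 0 of its 3 comparisons passed the threshold. Pgr stood at 5.83 and 5.17 CPM in Prepuberty, 6.13 and 12 in DCIS, 0 in Tumor 1 (at most 7.42 CPM by its interval) and 1.87 (3 UMIs) in Tumor 2, and the log2 difference of -3.47 ± 0.82 from DCIS to Tumor did not pass (edgeR adjusted p = 0.0564), but did with the replicate number as a block (edgeR adjusted p = 0.0475).

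Greb1 in fibroblasts stood at 8.37 and 7.25 CPM in Prepuberty, 1.46 and 3.05 in DCIS and 0 and 3.74 (6 UMIs) in Tumor, and did not pass the threshold in any comparison. In Prepuberty 1 fibroblasts held 155 Greb1 and 108 Pgr UMIs, whereas the Epcam-positive cells held 53 and 1530. The ratio of the genes thus differed between the cell classes of 1 library. Cited1 stood at 3.73 and 4.09 CPM in Prepuberty, 6.43 and 7.22 in DCIS, and 0 and 0.623 in Tumor. It was the 1 gene of the 5 tested to be called lower from DCIS to Tumor (edgeR adjusted p = 0.0400), where 4.45% of 11153 genes were called and 2.22% lower. From Prepuberty to Tumor 0 of the 5 were called, where 2.14% of all genes were, 1.37% higher and 0.771% lower. This rests on 1 Cited1 UMI in the tumours against 67 in DCIS, a ratio of 0.0686 with an exact 95% interval of 0.00171 to 0.395 for counting error, and the fitted fold depends on the prior count. The call of Cited1 was lost without Prepuberty 1, Prepuberty 2, DCIS 1, DCIS 2 or Tumor 2, at edgeR adjusted p = 0.0596, 0.0593, 0.185, 0.233 and 0.145.

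**Figure D5:**
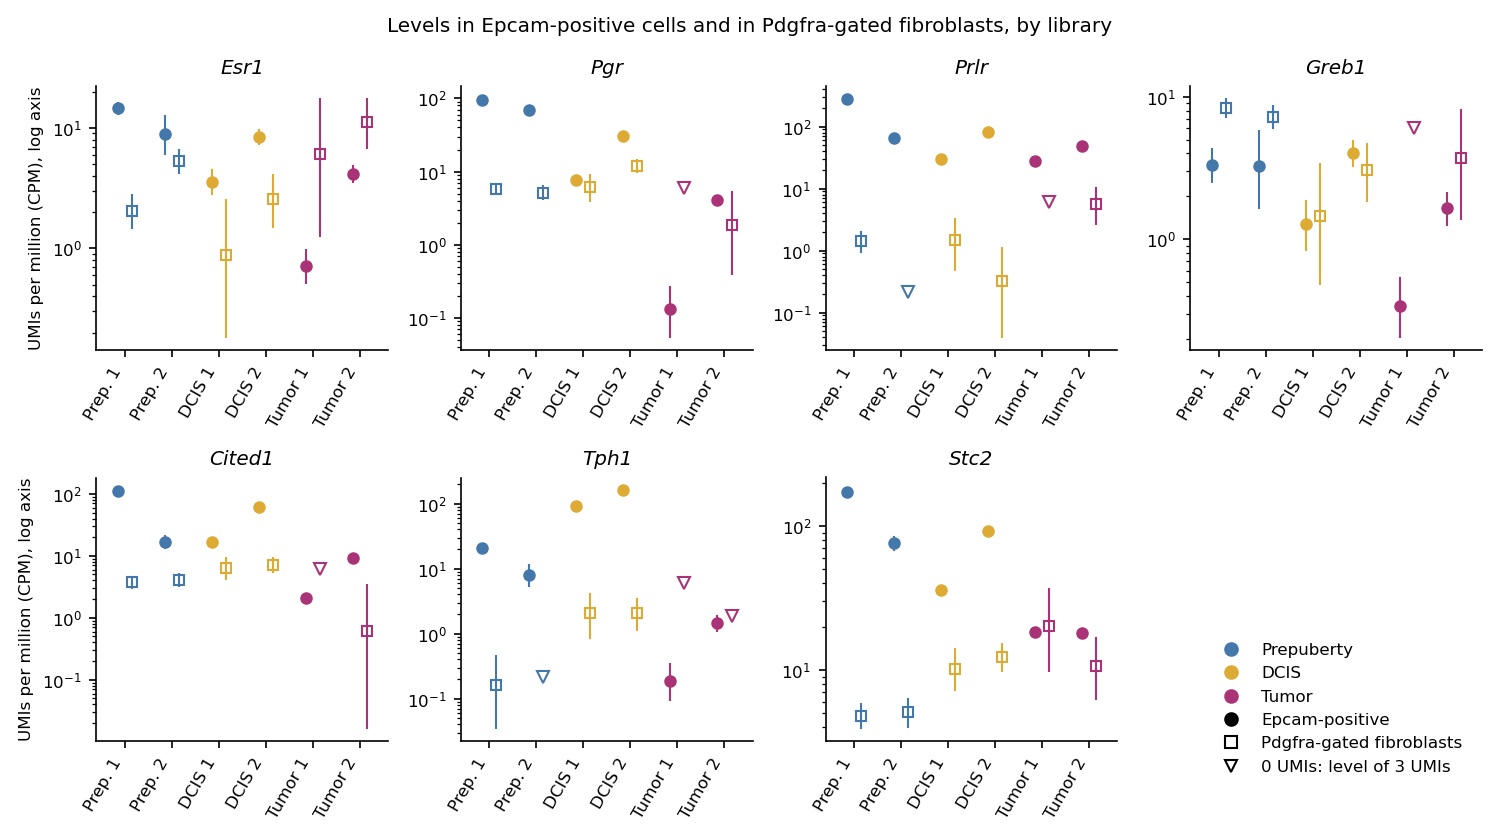
Levels of the 7 genes in Epcam-positive cells (circles) and Pdgfra-gated fibroblasts (open squares), in CPM on a log axis. Each library has 1 point per cell class with its exact 95% Poisson interval, and open triangles lie at the level of 3 UMIs where a library had 0. In fibroblasts Esr1 and Stc2 are not lower in Tumor than in Prepuberty, and the tumour intervals of fibroblasts are wide.

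Among listed genes that are not members, 1 of 10 tested paracrine targets rose in fibroblasts, where 2.22% of all genes were called higher from DCIS to Tumor, 2.22% lower, and 1.37% higher from Prepuberty to Tumor. Tnfsf11, the RANK ligand gene, stood at 0.594 and 0.717 CPM in Prepuberty, 2.92 and 0.962 in DCIS and 18.1 and 125 in Tumor (4.61 ± 0.84 from DCIS, edgeR adjusted p = 0.0355, and 6.28 ± 0.87 from Prepuberty, edgeR adjusted p = 0.0252). From DCIS to Tumor the call was lost without DCIS 1, DCIS 2 or Tumor 2 (edgeR adjusted p = 0.142, 0.239 and 0.216), and from Prepuberty to Tumor without Prepuberty 1, Prepuberty 2 or Tumor 2 (0.0863, 0.110 and 0.0967). Pgrmc1, a membrane-associated progesterone-binding protein gene, fell from 235 and 312 CPM in DCIS to 78.5 and 120 in Tumor (-2.10 ± 0.37, edgeR adjusted p = 0.0312). Jak2 fell from 46.7 and 47.3 to 22.1 and 18.7 CPM (-1.86 ± 0.41, edgeR adjusted p = 0.0482). Without DCIS 1, DCIS 2 or Tumor 2 the edgeR adjusted p was 0.145, 0.215 and 0.102 for Pgrmc1 and 0.222, 0.256 and 0.193 for Jak2, and Jak2 was also lost without Prepuberty 1 (0.0572) or Prepuberty 2 (0.0577). Of the listed hormone-sensing markers, 3 could be tested and 0 passed. With the replicate number as a block, Jak2 was also called lower from Prepuberty to Tumor (edgeR adjusted p = 0.0408, against 0.0697 without it), and Igfbp4, a gene of an insulin-like growth factor binding protein, higher in Tumor than in DCIS (0.0159, against 0.190) and Prepuberty (0.00365, against 0.0678). The block moved the fibroblast calls from 496 to 871 from DCIS to Tumor and from 239 to 597 from Prepuberty to Tumor. From Prepuberty to DCIS, 0 of 11153 genes passed in fibroblasts by edgeR (11 with the block), with 990 at an unadjusted p under 0.05 and 62 called by DESeq2.

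Other cells held little of the 7 genes, except for Stc2 in the tumours. In endothelial cells (Pecam1), Stc2 stood at 5.06, 6.70, 7.49 and 6.93 CPM in the glands and 15.9 and 39.1 CPM in the tumours (8 UMIs in each). Epcam-positive cells of the tumours stood at 18.5 and 18.0 CPM of Stc2. In endothelial cells the other 6 genes had at most 10 UMIs a library. In immune cells 0 Pgr and 0 Greb1 UMIs were counted in any library. In cells outside every gate Pgr stood at 0 to 8.97 CPM and Prlr at 0.516 to 8.57 CPM.

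Genes with the most similar pattern over 34 profiles (hormone-sensing-gated, other Epcam-positive, fibroblast, endothelial, immune and mural cells of each library, where at least 10 cells) were listed by Pearson r of log2(CPM + 1) among 13153 genes, as a description, since profiles of 1 library share their depth and preparation. Pgr was closest to Gm16485 (0.95), Cd164 (0.95) and Fgg (0.94), and Cited1 to Fgg (0.94), Cd164 (0.94) and the gate marker Cxcl15 (0.94). Prlr was closest to Tmprss2 (0.95), Rasef (0.94) and Vtcn1 (0.94). Tph1 was closest to R3hdml (0.97), 9530014B07Rik (0.93) and Aoc1 (0.90), and Stc2 to Mboat2 (0.91), 1110008L16Rik (0.90) and Tspan1 (0.89). The sparser Esr1 reached 0.85 with Mum1l1, 0.84 with Gm16485 and 0.84 with Bmp3, and Greb1 0.80 with Kcns3, 0.79 with Gm16141 and 0.79 with Ptpn5. No member was among the 3 genes closest to another.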

How the data were processed

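Cells of the 6 libraries were captured with 10x Genomics droplets, and the deposited matrices are unscaled UMI counts, which the authors made with Cell Ranger (3.0.2 in the file header). The submitters' processing notes also name STAR, SAMtools, Picard and Salmon and the build mm10. No normalized value was used. The 7 members and all gene lists were chosen with earlier results of these data known. From the listed genes, every gene past the threshold and up to 4 others with the highest mean CPM were named.

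Cells with at least 200 genes and at most 10% mitochondrial UMIs were kept, and Scrublet (scanpy 1.11.5) removed 2.19% to 3.71% of cells as doublets. UMIs were summed per library and tested with edgeR 4.0.16 (R 4.3.3, quasi-likelihood, TMM, filterByExpr, Benjamini-Hochberg over all genes tested, all 6 libraries, state as the only term). Cells with and without T antigen were compared with library as a block. The script was tested on simulated data. Shares used cells thinned to 3000 UMIs, and the split of a change into make-up and level used the mean of both states' weights. Intervals and floors are exact at 95% and cover counting error only. Alternatives included DESeq2 1.42.0, other filters, gates and thinning depths, a replicate block, and each library left out. Those chosen after the data were seen were the looser or deeper leave-one-out gate, another thinning draw, and for T antigen the cells free of other markers, the thinned call and the cells outside the hormone-sensing gate. Positions are from GENCODE vM21 (GRCm38).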

Additional observations from a re-analysis of the deposited data

Results flagged for a closer look

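For 3 genes, both libraries of the later state lay below both of the earlier state in Epcam-positive cells and above both in fibroblasts. The difference between the cell classes was not tested.

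Pgr from Prepuberty to DCIS stood in Epcam-positive cells at 96.2 and 70.0 CPM against 7.78 and 30.6, and in fibroblasts at 5.83 and 5.17 CPM against 6.13 and 12. Esr1 from Prepuberty to Tumor stood in Epcam-positive cells at 14.5 and 8.90 CPM against 0.720 and 4.15, and in fibroblasts at 2.05 and 5.31 CPM against 6.04 and 11.2. Stc2 from Prepuberty to Tumor stood in Epcam-positive cells at 173 and 75.9 CPM against 18.5 and 18.0, and in fibroblasts at 4.81 and 5.09 CPM against 20.1 and 10.6. The fibroblast levels in Tumor rest on 3 and 18 UMIs of Esr1 and 10 and 17 of Stc2. Groups of 2 libraries are too small to look for a single library far from the rest.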

How the results depend on the processing

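The signs of all 7 genes from DCIS to Tumor and from Prepuberty to Tumor in Epcam-positive cells held in 15 of 15 alternatives. From Prepuberty to DCIS the sign held in 12 for Greb1, 13 for Cited1 and 14 each for Prlr and Stc2. With 2 libraries a state, counts of called genes moved widely, and the cause was not tested. With DESeq2 the Epcam-positive comparisons (to DCIS, DCIS to Tumor, Prepuberty to Tumor) had 203, 2006 and 2412 calls and the fibroblast ones 62, 1344 and 1028. With no filter on low counts these were 187, 1680 and 2152, and 303, 1926 and 1784. With only the libraries compared, DCIS to Tumor had 0 and Prepuberty to Tumor 111 calls in Epcam-positive cells. Epcam at 2 UMIs gave 96 from DCIS to Tumor, cells free of Ptprc, Pecam1 and Pdgfra gave 69 and 123, and Pdgfra at 2 UMIs gave 222 for fibroblasts from DCIS to Tumor. For T antigen, no filter gave 1628 calls, no library block 2, cells free of other markers 285 and the thinned call 666. Leaving out 1 library gave 0 to 0, 0 to 1108 and 0 to 1250 calls in Epcam-positive cells, 0 to 0, 3 to 1248 and 0 to 638 in fibroblasts and 342 to 1402 for T antigen.

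The replicate number as a block gave 23 calls from DCIS to Tumor in Epcam-positive cells, and 11, 871 and 597 in fibroblasts. The pairs of same-numbered libraries were DCIS with Prepuberty, Tumor with Prepuberty and Tumor with DCIS. Their deviations from the state mean correlated at 0.214, -0.0118 and 0.0499 in Epcam-positive cells and 0.317, 0.116 and 0.179 in fibroblasts. With 2 libraries a state both numbers give the same value, and 2 numbers a state are too few to settle whether the numbers pair the libraries. With the block, Ccnd1, Jak2 and Prom1 from DCIS to Tumor had edgeR adjusted p = 0.0538, 0.0622 and 0.0662 in Epcam-positive cells, and Ccnd1, Cxcl12, Stat5b, Prom1 and Xbp1 from Prepuberty to Tumor 0.05003, 0.0510, 0.0514, 0.0557 and 0.0557, while Fxyd2 passed at 0.0392.

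The hormone-sensing share from DCIS to Tumor differed by -9.80 points at 6000 UMIs and -9.82 with 1 of 6 markers. Leaving out 1 library gave -12.5 to 0.497 points to DCIS, -7.68 to -1.76 from DCIS to Tumor and -17.2 to -4.22 from Prepuberty to Tumor. The make-up percent of the summed genes to DCIS was 84.9 with Ly6a and Areg added, 37.2 with another thinning draw and 36.1 with Epcam at 2 UMIs. From DCIS to Tumor it was 73.2 at 6000 UMIs and 16.6 with Ly6a and Areg, and from Prepuberty to Tumor 26.6 with Ly6a and Areg. Leaving out 1 library gave -0.290 to 169, 15.2 to 48.8 and 15.1 to 55.8 percent. For Greb1 to DCIS the percent turned to -19.9 at 6000 UMIs, -44.4 with another draw, -14.5 with no doublet removal, -36.9 at a 5% mitochondrial limit and -43.4 with Epcam at 2 UMIs, and from Prepuberty to Tumor to -10.8 with Ly6a and Areg and -0.591 with no doublet removal. Over the tables without 1 library and the leave-one-out gates, the percent ran from -6.89 to 63.4 for Esr1, from -23.3 to 162 for Greb1 and from -70.5 to 2.42 for Tph1 to DCIS, from -193 to 977 for Prlr from DCIS to Tumor, and from -7.20 to 150 for Greb1 from Prepuberty to Tumor.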
